A study of Ovis aries with 6 samples.

Results

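The hyper DMRs at fetal low-methylated regions are 400 of the 526 autosomal differentially methylated regions (DMRs) that the authors deposited in a list named hyper. Each shares at least 1 base with an unmethylated region (UMR) or a low-methylated region (LMR) listed for fetal perirenal fat. The other 126 autosomal hyper DMRs touch neither, and 28 on the X chromosome or unplaced contigs were left out. In UMRs almost no CpG carries methylation, and they include most CpG-rich promoters. LMRs are shorter, poorer in CpGs and partly methylated, and they often mark distal enhancers. In adipose tissue, as elsewhere, the border between an unmethylated promoter and the methylated DNA around it is often called the shore.

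Whole-genome bisulfite sequencing was done on DNA from perirenal adipose tissue, the fat around the kidney, of 3 lambs and 3 fetuses of pure bred Merino sheep, wild type and untreated. Bisulfite converts unmethylated cytosine, and the methylation level of a CpG is the share of its reads that keep a C. The lambs were 89 days old with a spread of 7 days per the protocols, or 80 days per the series text, and the labels call their fat white adipose. The fetuses were taken 132 days post conception with a spread of 1 day, term being 150 days, and the labels call their fat brown adipose. Brown fat produces heat in the newborn, white fat stores lipid, and in sheep the perirenal depot passes from one to the other after birth. Each sample is a separate animal, from a ewe of its own, and ewes were fed to maintenance. Sample descriptions end in VEH for all lambs and in TV for all fetuses, so whatever the tags mean and the stage cannot be told apart. Whole tissue was ground, so a change in the share of cell types and a change within cells cannot be told apart in any level below. Reads covering CpGs totalled 209550245, 136938075 and 146582297 in lambs 1 to 3 and 195240369, 140953569 and 172812174 in fetuses 1 to 3. Coordinates follow the build Oar_v3.1, counted from 1, and their place relative to genes was not analysed here.

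The DMRs divided almost evenly between both kinds of fetal region: the host, meaning the fetal region that shares most bases with the DMR, was a UMR for 196 (49%) and an LMR for 204 (51%). There were 394 distinct hosts, and 6 of them held 2 of the DMRs. Hosts were 0.909% of the 21446 fetal UMRs and 0.183% of the 108524 fetal LMRs. A DMR was called whole when it covered both ends of its host, edge when it covered exactly 1 end, and core when it covered neither.

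DMRs in UMRs were small patches near the rim. They covered a median of 6.03% of the host, and the UMRs that held them had a median length of 2249.5 bases, against 1859 bases over all fetal UMRs. Of these DMRs 1 was whole, 85 (43.4%) were edge and 110 (56.1%) were core. Of the core ones, 78 (70.9%) had a midpoint nearer to an end of the UMR than to its centre, and the median distance to the nearer end was 222.5 bases (quartiles 95.5 and 518.75). Edge DMRs reached a median of 86 bases into the UMR and 56 bases out of it.

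DMRs in LMRs took up more of the region. They covered a median of 33.9% of the host, whose median length of 608.5 bases was close to the 593 bases of all fetal LMRs. The DMRs themselves differed less in length than their hosts, with medians of 268 bases in LMRs and 209.5 bases in UMRs. There were 17 whole (8.33%), 105 edge (51.5%) and 82 core (40.2%) DMRs. Of the core ones, 17 (20.7%) had a midpoint nearer to an end of the LMR than to its centre. Their median distance to the nearer end was 132.5 bases (quartiles 90.5 and 266.5), shorter than in the longer UMRs. Edge DMRs reached a median of 177 bases into the LMR and 90 bases out of it. LMRs with a DMR had 2.3 listed CpGs per 100 bases, against 1.5 over all fetal LMRs. How the number of CpGs bears on which LMRs were listed with a DMR was not tested. Over both kinds of host, DMRs had a median length of 243 bases, from 16 to 1279, and a median of 7 listed CpGs.

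**Figure D1:**
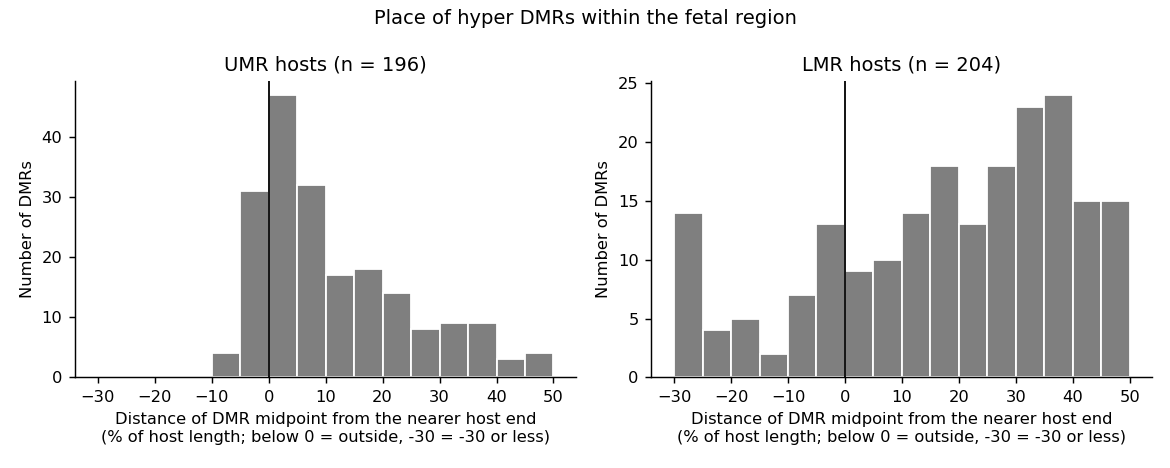
Distance of the midpoint of each DMR from the nearer end of its fetal host, in percent of the host's length, as numbers of DMRs for the 196 in UMRs and the 204 in LMRs; values below 0 are midpoints outside the host, and the leftmost bar gathers all farther ones. On this scale DMRs in UMRs crowd at the host end, with 78 of the 110 core ones nearer to an end than to the centre. Those in LMRs spread over the whole region. In bases, core DMRs of LMRs lie closer to the nearer end, at a median of 132.5 bases against 222.5 in UMRs.

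The lists of UMRs and LMRs made for the lambs show the same places from the other side. Of the 196 DMRs in fetal UMRs, 172 (87.8%) had a host that still met a lamb UMR, 22 met a lamb LMR alone and 2 met neither. Among all fetal UMRs 92.7% met a lamb UMR. Of the 204 in fetal LMRs, 108 (52.9%) had a host that met neither list in lambs, 95 met a lamb LMR and 1 met a lamb UMR. Among all fetal LMRs 29.4% met neither. Both stages' lists were made from the same animals as the DMRs, so these shares are descriptions.

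In UMRs with an edge DMR the lamb region stopped short at the end where the DMR lay. An edge DMR covers that end and was listed from the same animals, so this follows largely from the choice of DMRs. The values are descriptions. The lamb region could be a UMR or an LMR, and 5 of these hosts met a lamb LMR alone. At that end the lamb region stopped a median of 140.5 bases short of the fetal end (quartiles 43 and 298.75), and it stopped short in 73 of 84 cases. At the opposite end of the same UMRs the median was 0 bases, with 30 short, 17 beyond and 37 equal. LMRs with an edge DMR that still had a lamb region (43) gave medians of 139 bases at the covered end and 29 bases at the opposite end. The median UMR with a DMR kept 86.4% of its bases in a lamb UMR, against 99.5% over all fetal UMRs, which is not free of that choice either.

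Inside the DMRs the pooled level was 55.5%, 58.5% and 56.7% in lambs 1 to 3, against 33.9%, 34.0% and 34.9% in fetuses 1 to 3. All lambs lay above all fetuses. The means were 56.9% ± 1.53 in lambs and 34.3% ± 0.575 in fetuses (SD, n = 3 each). They differed by 22.6 percentage points over 3501 CpGs. The authors listed the DMRs from these animals and this contrast, so no test is given of the level inside them.

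The stages differed by 22.0 points in UMRs and by 23.4 points in LMRs, where both stages stood higher. DMRs in UMRs were at 51.5% ± 1.85 in lambs and 29.6% ± 0.778 in fetuses, and DMRs in LMRs at 61.0% ± 1.32 in lambs and 37.7% ± 0.295 in fetuses (SD, n = 3 each). Core DMRs had the lowest levels, 44.7% in lambs and 23.3% in fetuses for UMRs, and 51.1% in lambs and 28.3% in fetuses for LMRs. Whole DMRs in LMRs were at 69.6% in lambs and 44.5% in fetuses.

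Edge DMRs span the border of the host, and their levels split there. That border was drawn from the fetal animals, so lower fetal levels inside it than outside are built in. The larger stage difference inside is not free of that choice, and the values are descriptions. In UMRs the part inside the host was at 57.5%, 57.5% and 53.4% in lambs and 33.8%, 30.4% and 29.0% in fetuses. The part outside the host was at 74.9%, 77.1% and 77.9% in lambs and 63.8%, 60.9% and 60.9% in fetuses. The stages differed by 25.0 points in the inner part and 14.7 points in the outer part. In LMRs the inner part of edge DMRs was at 54.8% in lambs and 30.5% in fetuses, and the outer part at 76.6% in lambs and 60.0% in fetuses. Whole DMRs in LMRs differed by 32.0 points inside the host, where lambs were at 64.5% and fetuses at 32.5%, and by 15.2 points outside it.

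Single DMRs could be described for 366 of the 400, those with at least 3 CpGs read in each animal and at least 10 summed reads per animal; the other 34 had less. Their median level was 59.3% in lambs and 36.6% in fetuses, and the median difference was 22.7 points (quartiles 17.7 and 27.3, range -1.81 to 51.8). The lamb mean was higher in 363. It was lower in 3, all core DMRs with low levels in both stages. At chr1:34483029-34483288 the means were 0.901% in lambs and 1.61% in fetuses, at chr20:10954202-10954455 8.57% in lambs and 10.4% in fetuses, and at chr23:592-885 6.53% in lambs and 6.81% in fetuses. Every lamb lay above every fetus in 255 DMRs (69.7%), and in none did every lamb lie below every fetus. Over all autosomal fetal UMRs and LMRs with the same reads, 14.2% had every lamb above every fetus, and among other hyper DMRs it was 44 of 95, or 46.3%. As the list was picked on this contrast, nothing is read from these shares. The counting error of single DMRs is large, with a median of 49.8 reads per animal and a median SD of 8.44 points among lambs and 7.77 among fetuses.

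Full methylation in lambs was uncommon. Of the 366, 16 had a lamb mean of at least 80%, 261 lay from 50% to 80%, 84 from 20% to 50% and 5 under 20%. In fetuses 0 reached 80%, 50 lay from 50% to 80%, 274 from 20% to 50% and 42 under 20%. Lamb 2 was the highest lamb in 148 DMRs, lamb 3 in 116 and lamb 1 in 102. Over all autosomal CpGs lamb 2 was also the highest, at 72.08%, against 69.92% in lamb 1 and 71.11% in lamb 3. Fetuses ranged from 70.2% to 70.4% there. Lamb 2 had the lowest mean autosomal coverage of all animals, 5.22 reads. Fetus 2 was the lowest fetus in 132, fetus 3 in 118 and fetus 1 in 116.

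**Figure D2:**
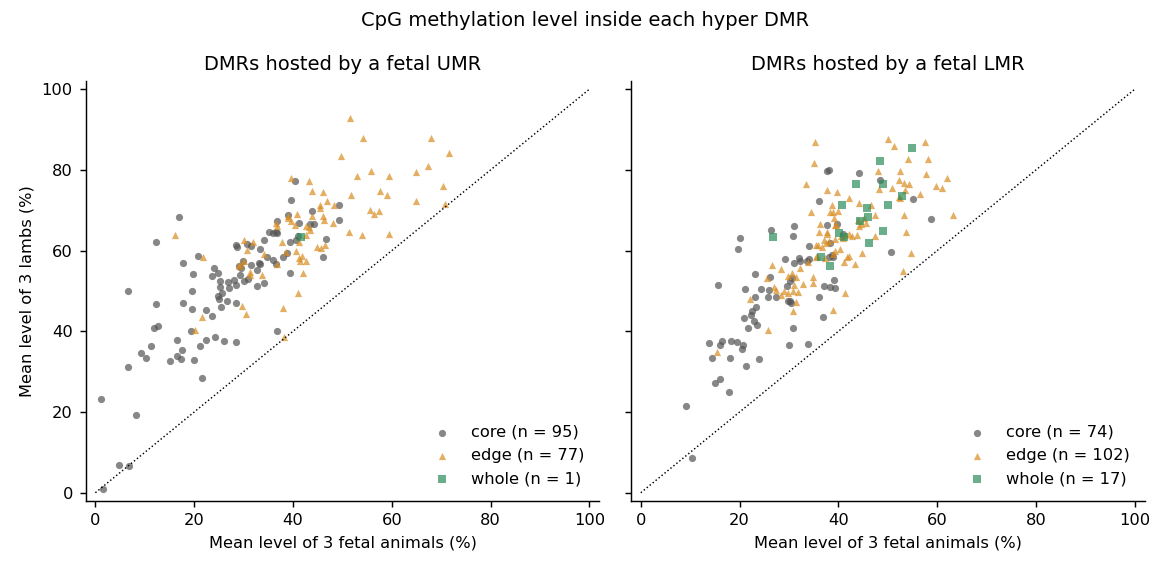
Mean level in percent inside each of the 366 described DMRs, lambs on the vertical axis and fetuses on the horizontal axis, in panels by kind of host and with symbols by place. The points lie above the dotted line of equal levels for 363 DMRs, and core DMRs sit lower than edge and whole ones in both stages.

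The only DMR that covered a fetal UMR from end to end was chr8:88756530-88757397, over a UMR of 723 bases. It was at 67.7%, 64.7% and 57.8% in lambs and 44.7%, 40.1% and 40.1% in fetuses, over 44 CpGs. The largest differences of each class were taken from DMRs with at least 5 CpGs, at least 20 reads per animal and no overlap of the stages; DMRs near the class median, at DMVs, beside called flanks or at the limit of the overlap rule were named without these minimums. The largest difference among whole DMRs in LMRs was at chr3:178407024-178407933, with 55.0%, 67.1% and 68.1% in lambs and 29.7%, 15.9% and 34.7% in fetuses. At chr24:24775227-24775847 lambs were at 82.7%, 76.8% and 86.8% and fetuses at 38.6%, 53.2% and 53.3%. At chr21:34496624-34497218 lambs were at 78.7%, 75.8% and 74.8% and fetuses at 33.3%, 49.1% and 48.1%. Lambs and fetuses did not overlap in any of these 4. The whole DMR nearest to the class median, chr1:16649142-16650305, averaged 67.3% in lambs and 44.4% in fetuses.

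Among edge DMRs in LMRs the largest difference was at chr17:70863662-70863792, with 84.2%, 89.2% and 87.5% in lambs and 0%, 50% and 55.6% in fetuses. Fetus 1 stood far below the other fetuses there, and without it the difference was 34.2 points. The next, chr3:211005630-211005810 and chr18:9683259-9683388, differed by 37.5 and 34.8 points, and the typical one, chr18:58470063-58470362, by 23.0 points. Among edge DMRs in UMRs the largest difference was at chr19:52073095-52073745, with 37.9%, 74.4% and 79.5% in lambs and 25.9%, 15.2% and 7.32% in fetuses. Lamb 1 lay nearer to the fetuses than to the other lambs. At chr3:104606512-104606838 and chr6:94528099-94528239 the differences were 36.5 and 32.6 points (20.6 at the second with a minimum of 3 reads per CpG), and at the typical chr1:235579521-235579725 21.7 points.

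Among core DMRs in UMRs, lamb 2 stood apart from the other lambs at the largest differences. At chr12:50395129-50395222, within a UMR of 2601 bases, lambs were at 47.2%, 95.9% and 42.9% and fetuses at 0%, 0% and 36.7%. The difference was 49.8 points, and 32.8 points without lamb 2. At chr21:41566105-41566363 lambs were at 45.3%, 73.8% and 51.4% and fetuses at 19.0%, 20.6% and 13.9%. At chr12:78679492-78679679 lambs were at 36.4%, 63.6% and 40.4% and fetuses at 6.67%, 17.3% and 12.8%. Lamb 2 was the highest lamb at all 3. The typical core DMR in a UMR, chr19:58228462-58228844, averaged 58.5% in lambs and 34.8% in fetuses. Among core DMRs in LMRs, chr3:11309240-11309333, chr15:80181101-80181366 and chr2:112846875-112847034 differed by 43.0, 41.9 and 41.9 points, and the typical chr1:160760013-160760275, with 3 CpGs, by 21.7 points.

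DNA methylation valleys (DMVs) are long tracts with almost no methylation, many of them around genes of developmental regulators, and 7 of the DMRs shared bases with a fetal DMV. Of these, 4 lay wholly inside it, while chr1:67331203-67331634 shared 332 of its 432 bases, chr2:134567262-134568330 shared 280 of 1069 and chr4:32063411-32063738 shared 40 of 328. The longest was chr2:134567262-134568330, at the edge of a UMR of 19085 bases, with 61.8%, 58.6% and 57.1% in lambs and 37.9%, 30.5% and 34.1% in fetuses. In a UMR of 20767 bases, chr1:67331203-67331634 had 51.2%, 43.9% and 49.1% in lambs and 27.3%, 28.3% and 19.4% in fetuses. The lowest fetal level was at chr14:52294762-52295021, which averaged 31.2% in lambs and 6.68% in fetuses; the difference of 24.5 points was 15.1 points without lamb 2. At chr3:188615585-188615710, chr4:32063411-32063738 and chr7:29785496-29785548 lambs were higher by 27.3, 22.4 and 29.7 points. The seventh, chr25:24571437-24571688, had 2 usable CpGs and is not described.

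At the limit of the overlap rule, the DMRs at chr6:67137425-67137523 and chr20:49317460-49317585 shared 2 bases with a fetal region. They averaged 87.9% in lambs against 54.1% in fetuses, and 57.2% in lambs against 41.2% in fetuses. The nearest hyper DMRs that touched none, chr2:50675262-50675373 and chr9:34976139-34976518, lay 10 and 13 bases away and averaged 69.2% in lambs against 50.3% in fetuses, and 76.4% in lambs against 65.9% in fetuses.

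The rest of the host, outside every DMR, was measured next. These bases border regions listed from the same animals, so they are not free of that choice, and the fetal lists were drawn from the fetal animals. In LMRs the rest of the host was at 44.8%, 49.1% and 45.3% in lambs and 30.2%, 31.7% and 28.1% in fetuses. The stages did not overlap, and the difference of 16.4 points gave p = 0.1 in an exact permutation test, two-sided. That is the smallest p which 3 animals against 3 allow, so no such comparison here can pass 0.05. Over all fetal LMRs the level was 34.0% ± 0.726 in lambs and 29.5% ± 0.867 in fetuses (SD, n = 3 each), a difference of 4.50 points. The difference between LMRs with a DMR and all fetal LMRs was 12.4 points in lambs and 0.508 points in fetuses, and these differed by 11.9 points (exact permutation p = 0.1).

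In UMRs the rest of the host, pooled over all of them, stayed low in both stages. It was at 8.89%, 9.33% and 9.09% in lambs and 7.26%, 7.32% and 7.18% in fetuses, without overlap, a difference of 1.85 points (exact permutation p = 0.1). Over all fetal UMRs lambs were at 9.58% and fetuses at 8.85%, a difference of 0.730 points, and the gap between both sets differed by 1.12 points between the stages (exact permutation p = 0.1). Some single UMRs stood far above the pooled level. The rest of the host was at 60.3% in lambs and 36.9% in fetuses at chr19:57651812-57651973. At chr17:52030636-52030849 it was at 48.5% in lambs and 37.6% in fetuses.

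**Figure D3:**
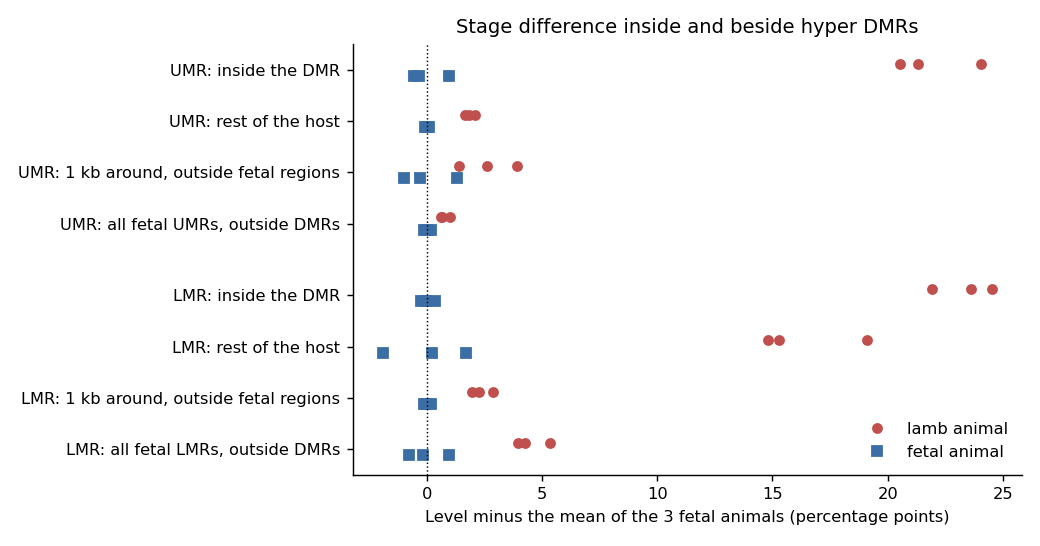
Pooled level of each lamb and each fetus minus the mean of the 3 fetuses, in percentage points, inside the DMRs, in the rest of the host, in the 1 kb around outside fetal regions and over all fetal regions outside DMRs. Lambs lie 22.0 points above the fetal mean inside DMRs of UMRs and 1.85 points in the rest of those UMRs, against 23.4 and 16.4 points in LMRs.

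Tested one by one with a quasi-binomial logistic model, dispersion moderated with limma and Benjamini-Hochberg adjustment over all 127283 fetal UMRs and LMRs, 0 of the 319 hosts of DMRs with enough reads were called at an adjusted p under 0.05 and at least 10 points. Over all regions tested 9 were called higher in lambs (0.00707%) and 0 lower. At an unadjusted p under 0.05 there were 140 hosts higher and 1 lower in lambs, where 10.8% of all regions tested were higher, and limma on log2 ratios also called 0 after adjustment. Of the 128 LMR hosts tested, 127 (99.2%) were higher in lambs, and the median host differed by 16.6 points. The median over all fetal LMRs was 4.26 points, with 71.8% higher. Of the 191 UMR hosts tested, 80.6% were higher in lambs with a median of 1.77 points, against 62.9% and 0.543 points over all fetal UMRs.

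Within 1 kb on each side, the difference faded with distance. Flanks border DMRs listed from the same animals and this contrast, so higher lamb levels close to them are not free of that choice. This holds for every flank below, and fetal regions were drawn from the fetal animals. Outside fetal regions the flanks were at 80.6%, 81.9% and 81.1% in lambs and 78.6%, 79.2% and 78.4% in fetuses, a difference of 2.45 points without overlap (exact permutation p = 0.1). In fetal regions they were at 17.1%, 18.4% and 17.3% in lambs and 12%, 12.6% and 11.9% in fetuses, a difference of 5.48 points (exact permutation p = 0.1). With 500 bases on each side these differences were 6.27 and 9.71 points, and with 2 kb 1.02 and 3.61 points. Around core DMRs of LMRs the first 100 bases were at 54.0% in lambs and 34.9% in fetuses. The difference was 19.0 points there, 6.88 points at 300 to 400 bases and -0.226 points at 500 to 600 bases. On the host side of edge DMRs in UMRs it was 18.9 points in the first 100 bases, 10.1 in the next and 3.37 in the one after, and on the outer side 14.2, 9.88 and 5.84 points.

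**Figure D4:**
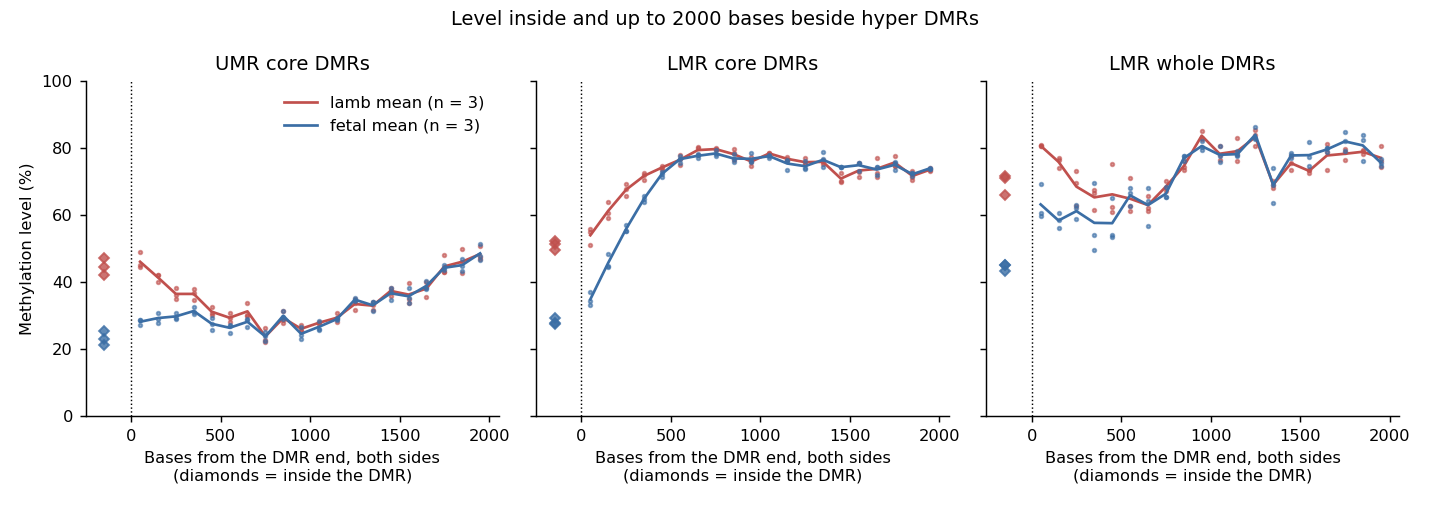
Methylation level in percent in bins of 100 bases by distance from the DMR's end, both sides together, for core DMRs of UMRs and for core and whole DMRs of LMRs; lines are means of 3 animals, dots single animals, and diamonds the level inside. In the first bin lambs lie 17.9, 19.0 and 17.4 points above fetuses in the 3 panels, and at 500 to 600 bases the differences are 3.06, -0.226 and -0.926 points.

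Around the other 126 hyper DMRs, the 1 kb outside fetal regions was at 83.3% in lambs and 78.9% in fetuses, a difference of 4.41 points. The stage difference was smaller around the DMRs at fetal regions by 1.95 points (exact permutation p = 0.1, two-sided). The sets were not measured at like distances. Around core DMRs these bases begin only past the rest of the host, and the difference faded with distance. By class the stage difference was 1.36 points around core, 2.52 around edge and 5.81 around whole DMRs of LMRs. In UMRs it was 1.76 points around core and 3.74 around edge DMRs, and 5.61 around the whole one. How distance bears on the 1.95 points was not tested. Over the whole 1 kb, fetal regions included, the stages differed by 4.13 points around the DMRs at fetal regions and 3.28 points around the others, which are 0.846 points apart (exact permutation p = 0.7), which is less than the spread between fetuses of 2.96 points.

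Both ends of the UMRs with an edge DMR were then set side by side, as a description where the DMR itself is included. At the covered end, DMR included, the last 100 bases inside the UMR were at 53.8% in lambs and 31.4% in fetuses, and the first 100 bases outside at 76.2% in lambs and 62.9% in fetuses. At the opposite end, with the bases of any DMR left out, the last 100 bases inside were at 33.6% in lambs and 30.4% in fetuses, and the first 100 outside at 65.8% in lambs and 67.1% in fetuses. Over 500 bases outside the opposite end, lambs were at 73.2%, 72.1% and 74.3% and fetuses at 73.7%, 71.8% and 72.2%. The stages overlapped, with a difference of 0.569 points (exact permutation p = 0.6). Over 500 bases outside all fetal UMR ends the difference was -0.554 points, also with overlap. Over 500 bases inside the opposite end lambs were at 14.5% ± 0.315 and fetuses at 12.9% ± 0.285 (SD, n = 3 each). The difference was 1.54 points without overlap (exact permutation p = 0.1), against 1.03 points over all fetal UMR ends. Just outside the covered end, with the DMR itself left out, lambs were at 84.1% ± 2.03 and fetuses at 76.0% ± 2.83, a difference of 8.10 points (exact permutation p = 0.1). That end is set by a DMR listed from the same animals, and these bases border it. A larger difference there than at the opposite end is thus not free of that choice.

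**Figure D5:**
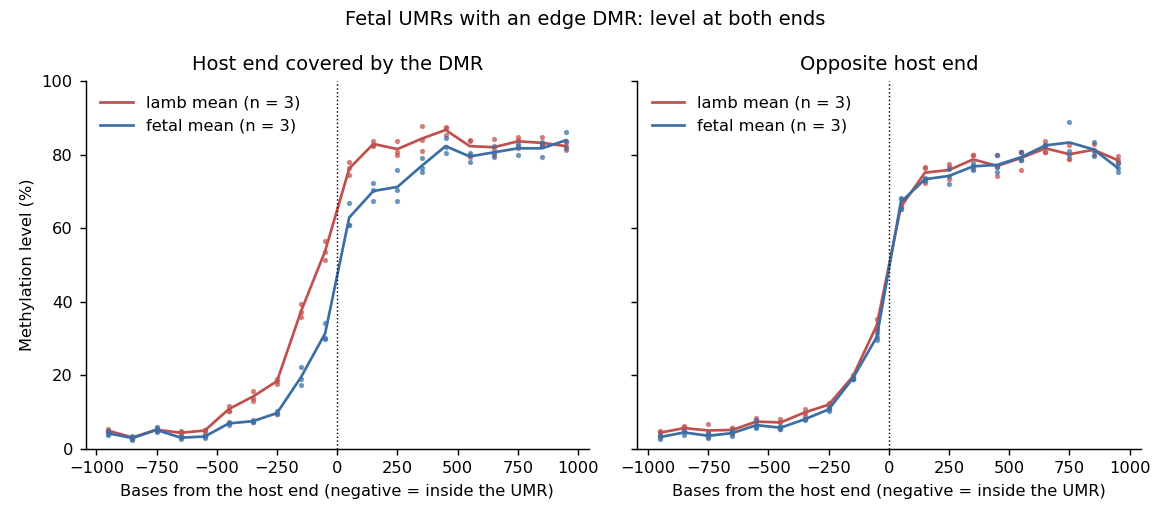
Methylation level in percent in bins of 100 bases across the ends of the 85 UMRs with an edge DMR, at the end the DMR covers, with DMR bases included, and at the opposite end, with the bases of any DMR left out; lines are means of 3 lambs and of 3 fetuses, and dots single animals. Lambs lie above fetuses by 22.4 points in the last 100 bases inside the covered end and by 3.14 points inside the opposite end.

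In LMRs with an edge DMR all lambs lay above all fetuses at the opposite end too. These LMRs had a median length of 494 bases, so 500 bases inside that end take in most of the rest of the host. That window held 551 CpGs, against 623 in the whole rest of these hosts, where lambs were at 45.2% and fetuses at 29.2%. The inside value thus nearly repeats the rest of the host and does not single out the opposite end. Over 500 bases inside the opposite end lambs were at 47.2% ± 4.01 and fetuses at 30.3% ± 2.49, a difference of 16.9 points. Outside it lambs were at 79.8% ± 0.631 and fetuses at 77.0% ± 0.824, a difference of 2.72 points. Both gave an exact permutation p = 0.1 (SD, n = 3 each). Over 500 bases outside all fetal LMR ends the difference was -0.209 points, and the stages overlapped. In LMRs this short the opposite end lies close to the DMR. On the host side of these DMRs the difference was 5.19 points at 300 to 400 bases. UMRs with an edge DMR had a median length of 2007 bases, so opposite ends lie at unlike distances in both kinds of host. How distance bears on the 2.72 points was not tested.

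Among single 1 kb flanks, 22 of the 727 beside these DMRs were called higher in lambs and 0 lower, by the same model and limits with adjustment over the 1770 flanks of all autosomal DMRs. Of those 1770, which include 856 flanks of hypo DMRs, 1.86% were called higher and 1.02% lower. Of the 187 flanks of other hyper DMRs, 10 were called higher and 0 lower. In 594 of the 727 (81.7%) the lamb mean was the higher one, and the median flank differed by 3.84 points. Of the flanks of other hyper DMRs this held for 80.7%, and their median was 3.98 points. The count of 22 depends on the model and on single animals: it was 0 with limma on log2 ratios, 5 with the replicate number as a block, 9 without lamb 1, 10 without lamb 2, 8 without lamb 3 and 6 without fetus 3.

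The one DMR with both flanks called was chr16:58356531-58357271, which covered an LMR of 295 bases whole. Inside it lambs were at 85.5%, 86.9% and 84.0% and fetuses at 65.2%, 58.6% and 40.6%. Its left flank was at 86.1% ± 0.345 in lambs and 61.9% ± 6.63 in fetuses (limma-moderated adjusted p = 0.000556), and its right flank at 87.1% ± 4.47 in lambs and 70.6% ± 2.74 in fetuses (limma-moderated adjusted p = 0.00227). On the host side of the edge DMR chr8:84526303-84526619 the flank was at 80.0% in lambs and 46.2% in fetuses. Beside core DMRs of LMRs, a flank of chr20:32121874-32122074 was higher in lambs by 33.1 points and one of chr20:40647115-40647187 by 27.8 points. Beside core DMRs of UMRs, the called flanks of chr17:52030636-52030849, chr11:36216563-36216584, chr3:7944582-7944782, chr15:77679259-77679539 and chr19:57651812-57651973 were higher by 12.2 to 17.4 points. Inside chr20:40647115-40647187 itself the animals overlapped, with 30.0%, 26.7% and 54.2% in lambs and 22.2%, 31.8% and 47.4% in fetuses. Lambs and fetuses also overlapped inside chr17:52030636-52030849, chr3:7944582-7944782 and chr15:77679259-77679539, where lamb means were higher by 12.9, 8.98 and 30.4 points.

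DMRs at fetal regions were found on all autosomes. Chromosome 3 held 48, or 12% of them, and 9.34% of all fetal regions. Chromosome 11 held 29 (7.25% against 4.82%) and chromosome 9 held 5 (1.25% against 3.39%). Per 100 fetal regions the share was highest on chromosome 20, at 0.573, with 22 DMRs. Of the 400, 82 (20.5%) lay within 5 Mb of the last listed CpG of their chromosome, as did 20.6% of the other hyper DMRs and 11.1% of all fetal UMRs and LMRs.

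The mirror set is the hypo DMRs at lamb UMRs or LMRs, 351 of 496. Inside them lambs were at 35.9% ± 1.63 and fetuses at 58.4% ± 0.202 (SD, n = 3 each), a difference of -22.5 points. In the rest of their hosts the stages differed by -2.39 points, against 2.69 points for the hyper DMRs at fetal regions. In the whole 1 kb around they differed by -3.71 points, against 4.13 points. Of the 200 hypo DMRs in lamb UMRs, 106 were edge and 94 core, against 85 edge and 110 core among hyper DMRs in fetal UMRs. The 151 in lamb LMRs were 12 whole, 87 edge and 52 core.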

How the data were processed

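The authors deposited raw counts of methylated and covering reads per CpG for each animal, and lists of DMRs, UMRs, LMRs and DMVs as positions alone. Per the series' design text, the reads were aligned to Oar_v3.1. Of tools and builds, BWA, Picard, hg19 and Oar_v3.1 are named, with no role for each, per the submitters' processing notes. The sources used here do not give how the lists were called or what hyper is relative to; lambs were higher inside the hyper list.

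The table lists 26377052 positions, and mean autosomal coverage ran from 5.22 to 8.00 reads per animal. Levels are methylated over covering reads, summed over CpGs with at least 1 read in each of the 6 animals. No molecular identifiers are named, so read numbers speak for counting error alone. Pooled levels were compared by exact permutation over animals, two-sided. Single regions with at least 3 CpGs and 10 reads per animal were tested with a quasi-binomial logistic model in R 4.3.3, dispersion moderated with limma 3.58.1 and not below 1, with Benjamini-Hochberg adjustment. Python 3.11.15, numpy 2.4.6, pandas 2.3.3, scipy 1.17.1 and matplotlib 3.10.9 were used.

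Regions were named as the 3 largest differences without overlap (at least 5 CpGs and 20 reads) and the most typical DMR per class, those sharing bases with a fetal DMV, up to 10 with a called host or flank, and those at the limit of the overlap rule; the 3 DMRs lower in lambs were chosen after their values were seen. The DMRs, lists and tests were chosen with earlier results of these data known. The comparisons of opposite ends and of hosts with all fetal regions were added after seeing the data. The planned naming by gene was not run, as no annotation of Oar_v3.1 was used. Replicate numbers name separate animals and do not pair them. Alternatives were other coverage and CpG minimums, other flanks, tolerance at host ends, equal weight per CpG, CpGs of high coverage left out, limma on log2 ratios with a pseudocount of 1, a replicate block and each animal left out.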

Additional observations from a re-analysis of the deposited data

How the results depend on the processing

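The levels inside, in the rest of the host and in both parts of the 1 kb around kept their direction under the alternatives run; the inside difference was 19.8 points with a minimum of 5 reads per CpG, which leaves fewer CpGs, and 21.7 to 23.3 leaving out 1 animal. Place depends on the definition: whole DMRs in LMRs numbered 28 with a tolerance of 50 bases and 33 when reaching the outermost CpG of the host sufficed, with 52 core. With 50% of the host required in the lamb lists, 67 hosts met a lamb LMR alone and 167 neither, against 117 and 110. Every lamb was above every fetus in 92 of 125 DMRs with 5 reads. Differences near 0 changed sign: with 5 reads, outside the opposite UMR end (-1.29) and this against all UMR ends (-0.818); and 1 kb around against other hyper DMRs, -0.707 with 5 reads, -0.0709 with 2 kb and -0.274 to 2.58 leaving out 1 animal.

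Called flanks numbered 6 with a minimum of 3 reads, 1 with 5, 0 with limma, 7 with at least 20 points, 42 with 500 bases, 5 with 2 kb and 6 to 23 leaving out 1 animal. The cause was not tested. With the replicate number as a block 5 flanks and 0 hosts were called. Deviations of same-numbered animals from their stage means had correlations from -0.0194 to 0.0503. Lambs 1 and 2 correlated best with the fetus of their own number, over fetal regions and over flanks, and lamb 3 did not. Values this small cannot show whether same-numbered animals share more than the number. The DMR at chr20:40647115-40647187 differed by -5.47 points without lamb 3, -2.65 without fetus 1 and at most 9.92 without fetus 3. With 5 reads the difference was 12.6 points at chr3:178407024-178407933, 11.5 at chr8:88756530-88757397 and 6.87 at chr1:16649142-16650305. Depth limits single DMRs, at 5.22 to 8.00 reads per CpG on average.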
